A study of Mus musculus with 18 samples.

Results

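Glucose and energy sensing was followed in RNA pulled down with astrocyte ribosomes. The 10 genes, chosen by name out of 21923 in the count table, were Txnip, Arrdc4, Mlxip, Prkaa1, Prkaa2, Prkab1, Stk11, Sesn1, Ddit4 and Hif1a. All 10 passed the filter on low counts, as did 13296 genes in total. Translating ribosome affinity purification (TRAP) pulls down ribosomes that carry an EGFP-tagged L10a protein, together with the mRNAs bound to them. The tag came from a Cre-dependent adeno-associated virus with a human GFAP promoter, given into a vein of mice of both groups, so that only recombined cells carried it. Ribosome-bound RNA of the cortex was sequenced from 3 control (Ctrl) and 4 GLUT1 conditional knockout (cKO) animals, 1 immunoprecipitated (IP) library each.

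The cKO mice had both copies of Slc2a1 flanked by loxP sites (GLUT1 flox/flox) and carried GLAST-CreERT2 (GLAC +/wt in the labels), a tamoxifen-inducible Cre driven by the promoter of an astrocyte glutamate transporter. The controls had unmodified Slc2a1 and carried the same Cre, so that Cre, virus and tamoxifen were common to both groups and the loxP sites were not. All animals were males of the C57BL/6 strain kept in the home cage, injected with tamoxifen on 5 days at 8 to 10 weeks of age, with RNA collected 60 days later. The deletion is limited to astrocytes in which Cre was active. The comparison asks whether the mRNAs for these sensors were at another level in the pulled-down RNA once the glucose transporter GLUT1 was removed.

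Cells read their fuel supply through several routes that meet at these genes. When glucose enters and is phosphorylated, MondoA, the protein of Mlxip, moves with its partner Mlx to the nucleus and switches on Txnip and Arrdc4, whose arrestin-like proteins curb further glucose uptake. When ATP falls, AMP-activated protein kinase (AMPK) is switched on by the kinase LKB1, the protein of Stk11, while Sesn1 and Ddit4 encode stress-induced brakes on the growth kinase complex mTORC1 and Hif1a encodes the oxygen-regulated factor that induces glycolytic genes.

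A genotype difference was not detected for any of the 10 genes. By the quasi-likelihood test of edgeR with Benjamini-Hochberg adjustment over all tested genes, 0 of 10 passed an adjusted p of 0.05, against 0.0451% of tested genes (6 of 13296), and every one of the 10 had an adjusted p of 0.9996. At an unadjusted p under 0.05 the count was also 0 of 10, against 2.58% of tested genes. In 0 of 10 were the values of the 2 genotypes apart without overlap, against 5.11% of tested genes. The exact test of edgeR and DESeq2 called 0 of 10 as well. Fold changes were positive, that is higher in cKO, for 6 genes and negative for 4, with a median log2 fold change of 0.022, beside a median of 0.012 and 52.3% positive over all tested genes.

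Levels are given as counts scaled to a common library total (CPM) after adjustment of the libraries by the trimmed mean of M-values (TMM), always in the order AstroTRAP_11, AstroTRAP_15 and AstroTRAP_19 for the controls and AstroTRAP_1, AstroTRAP_5, AstroTRAP_9 and AstroTRAP_17 for the cKO. CPM are not divided by gene length and so compare libraries, not genes. Total counts lay between 12570309 and 40734343 per library, the lowest in AstroTRAP_17 and the highest in AstroTRAP_11, and 3 counts correspond to between 0.0762 and 0.222 CPM. The whole-gene level of the targeted Slc2a1 was 61.7, 59.3 and 57.6 CPM in Ctrl and 61.9, 56.4, 59.4 and 58.3 CPM in cKO. Its log2 fold change was -0.013 (SE 0.12), so this count did not separate the genotypes and does not check them. The count takes in exons inside and outside the deleted stretch, and why it did not fall was not tested. Reads over the deleted exons alone were not analysed here. The genotype of each library is the one that the study's source data give for its name. The column names do not show which labelled sample each library is. Summed markers of astrocytes ranged from 10550 to 15260 CPM in Ctrl and from 10930 to 16670 CPM in cKO, with all 6 markers detected in every library. Markers of other cells were present too, those of oligodendrocytes at 703 to 782 CPM in Ctrl and 439 to 825 CPM in cKO, of neurons at 2429 to 2877 and 2013 to 2923 CPM, of microglia at 48.3 to 57.1 and 39.4 to 77.0 CPM, and of endothelial cells at 7.45 to 12.6 and 8.27 to 14.7 CPM. Of the 6 oligodendrocyte markers, 6 had a negative fold change and 0 passed the test. In such RNA fewer cells of a type, less RNA per cell and less untagged RNA carried into the pulldown cannot be told apart. The levels of the sensor genes are likewise those of the pulled-down RNA, and may include RNA of cells other than astrocytes. What share of each level came from astrocytes was not tested, because enrichment over input was not analysed here.

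**Figure D1:**
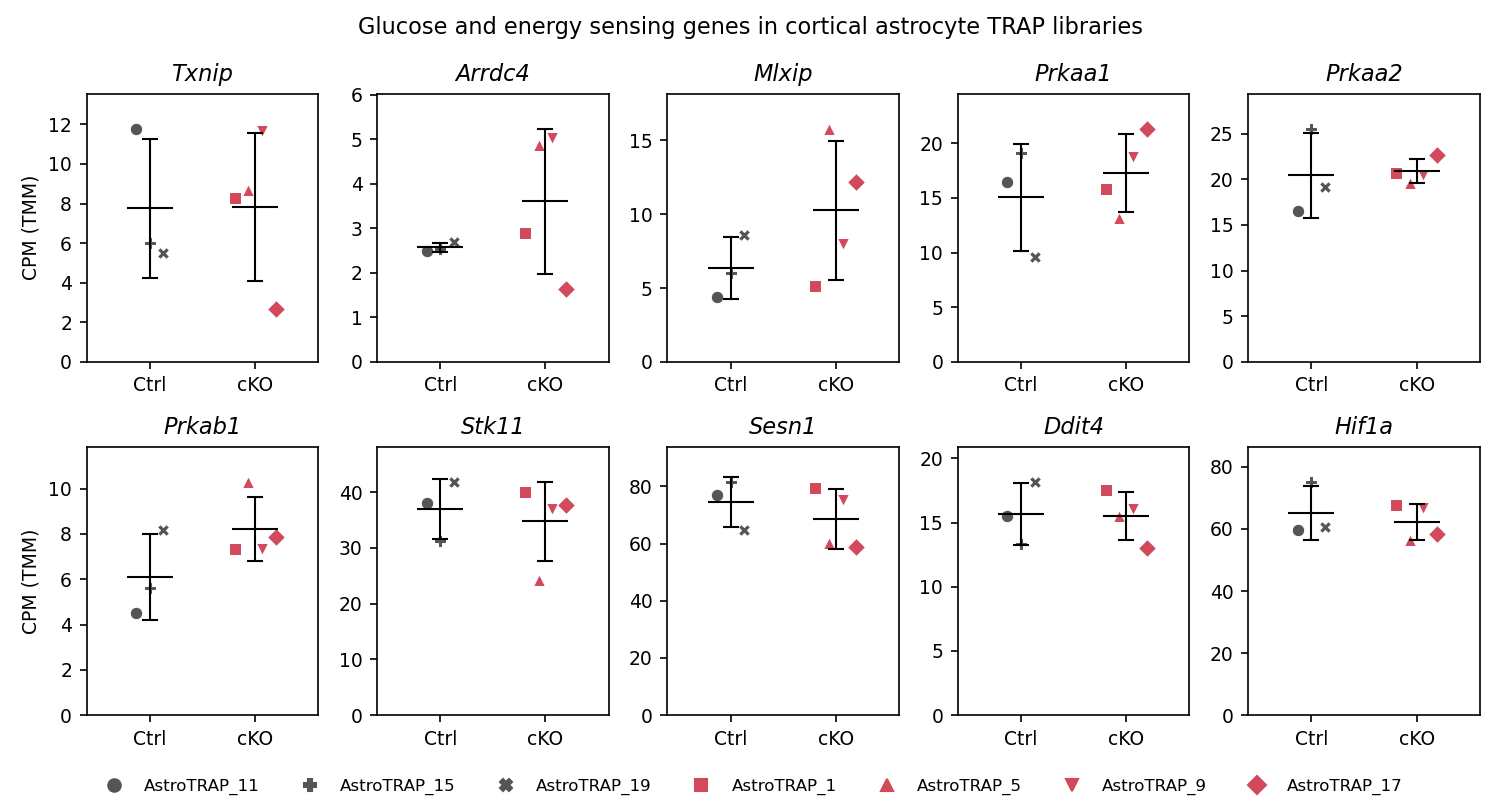
CPM (TMM-scaled, linear axis from 0) of each of the 10 genes by genotype, 1 symbol per library, with the mean as a long line and the SD as bars (3 Ctrl, 4 cKO). The symbols of the 2 genotypes overlap in height for all 10 genes; Txnip spans 2.67 to 11.7 CPM within cKO alone.

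The glucose-induced pair Txnip and Arrdc4 is described first, with the DNA just upstream of each gene, since sugar-responsive genes are bound by MondoA and its relative ChREBP at pairs of a short half-site. Txnip lies on chromosome 3 (chr3:96557957-96561857) and Arrdc4 on chromosome 7 (chr7:68736994-68749238) of GRCm38.p6. The 250 bases before each start, from RefSeq on that build and written 5′ to 3′ on the strand of the gene, are shown with capitals for the half-site CACGNG on either strand.
Txnip, chr3:96557707-96557956, plus strand: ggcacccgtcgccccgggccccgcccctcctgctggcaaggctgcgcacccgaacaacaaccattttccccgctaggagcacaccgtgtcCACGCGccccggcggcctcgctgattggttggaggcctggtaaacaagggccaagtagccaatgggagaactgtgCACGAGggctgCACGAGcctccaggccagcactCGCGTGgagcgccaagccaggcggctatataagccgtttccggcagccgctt
Arrdc4, chr7:68749239-68749488, minus strand: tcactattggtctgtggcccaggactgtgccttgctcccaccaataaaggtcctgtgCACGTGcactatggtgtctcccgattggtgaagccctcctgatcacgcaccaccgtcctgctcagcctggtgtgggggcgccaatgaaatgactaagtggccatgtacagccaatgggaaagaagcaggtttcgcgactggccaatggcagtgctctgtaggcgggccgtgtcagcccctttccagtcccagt

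In the window searched, 250 bases before to 50 after each start, Txnip held 4 half-sites. A pair of them, CACGAG and again CACGAG, ran in 1 direction with 5 bases between them, from base -85 to base -69 counted from the start (chr3:96557872-96557888). Such a pair stood in 16 of 32851 promoters (0.0487%), and in 27 (0.0822%) when the half-sites could point either way. Arrdc4 held a single half-site, CACGTG, at chr7:68749426-68749431. A single half-site is common, at 27.5% of promoters, and among the 10 genes it was also found for Prkaa2 and Hif1a. The 10 genes had 11 promoter windows. The Hif1a match, at chr12:73907732-73907737, lies inside the span of the gene and not before its first base. These matches are descriptions of letters in a window.

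Txnip, whose protein binds thioredoxin and promotes removal of GLUT1 from the cell surface, stood at 11.8, 6.00 and 5.48 CPM in Ctrl and at 8.27, 8.67, 11.7 and 2.67 CPM in cKO. The highest control and the highest cKO library were at almost the same level, and the lowest of all was AstroTRAP_17, which is also the library of lowest total count. The group means were 7.76 ± 3.50 CPM (SD, n = 3) and 7.82 ± 3.76 CPM (SD, n = 4), a log2 fold change of 0.013 (SE 0.47) with a 95% interval from -1.02 to 1.05. On the linear scale that interval runs from 0.492 to 2.07 times the control level. The part of depth in the low value of AstroTRAP_17 was not tested, and in that library Txnip still had 36 counts. The sign of the Txnip fold change turned in 5 of the 7 fits that left out 1 library, within -0.25 to 0.45.

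Arrdc4, a paralogue with an arrestin fold and no known thioredoxin binding, was at 2.49, 2.54 and 2.69 CPM in Ctrl and at 2.90, 4.88, 5.02 and 1.63 CPM in cKO. The control values sat close together inside the cKO range, with AstroTRAP_17 again lowest. Means were 2.58 ± 0.105 CPM (SD, n = 3) and 3.61 ± 1.63 CPM (SD, n = 4), a log2 fold change of 0.49 (SE 0.52, 95% interval -0.66 to 1.64). With 22 to 126 counts per library this was the gene of the 10 with the fewest reads.

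Mlxip, on chromosome 5 (chr5:123394521-123457932), had the largest fold change of the 10. Its level was 4.396, 6.03 and 8.56 CPM in Ctrl and 5.12, 15.8, 7.95 and 12.2 CPM in cKO. AstroTRAP_5 and AstroTRAP_17 were above every control, whereas AstroTRAP_1 and AstroTRAP_9 lay within the control range. The means of 6.33 ± 2.10 CPM (SD, n = 3) and 10.3 ± 4.69 CPM (SD, n = 4) gave a log2 fold change of 0.70 (SE 0.41, 95% interval -0.20 to 1.61) and an unadjusted p of 0.116 by the edgeR quasi-likelihood test. Without AstroTRAP_1 the log2 fold change was 0.92, with an unadjusted p of 0.0349 and an adjusted p of 0.996 by that test, still not past the threshold. It fell to 0.41 without AstroTRAP_5, and to 0.49 without AstroTRAP_11 with an unadjusted p of 0.317 by the same test.

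The wider MondoA and MYC/MAX network, the dimerisation partners and competitors of MondoA, had 8 genes tested and 0 past the test, all 8 with a positive fold change and a median of 0.21 (log2). Beside Mlxip, the largest was Mxd4, a MAX-binding repressor, at 65.5 ± 9.13 CPM (SD, n = 3) in Ctrl and 80.3 ± 14.5 CPM (SD, n = 4) in cKO (log2 fold change 0.29, SE 0.17). Mlx, the obligate partner, was at 24.6 ± 1.47 and 25.2 ± 5.18 CPM (log2 fold change 0.032). Mnt, another MAX partner, was the only gene of this list whose groups did not overlap, at 7.44 ± 0.102 and 9.09 ± 1.08 CPM. The count of 8 positive genes held under the other normalizations and tests, and lay between 6 and 8 when 1 library was left out. Mlxipl, which encodes ChREBP, reached 13 counts at most and was not tested. Among the MondoA and ChREBP targets 4 were tested, 3 positive and 1 negative: Klf10, a repressor with zinc fingers, was at 14.7 ± 2.05 and 19.8 ± 8.15 CPM, and Arrdc3 at 23.7 ± 9.36 and 21.2 ± 6.05 CPM. Pklr had 0 counts in all libraries.

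Within a library, the ratio of Txnip to Mlxip counts sets the target against its factor and does not depend on scaling between libraries. The log2 ratio was 1.42, -0.0087 and -0.64 in Ctrl and 0.69, -0.86, 0.55 and -2.17 in cKO. The groups overlapped widely, with means of 0.26 ± 1.06 (SD, n = 3) and -0.45 ± 1.35 (SD, n = 4), a difference of -0.71. By an exact two-sided permutation test p was 0.514 (adjusted over 3 ratios 0.629), where 0.0571 is the smallest p that 3 against 4 libraries can give.

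**Figure D2:**
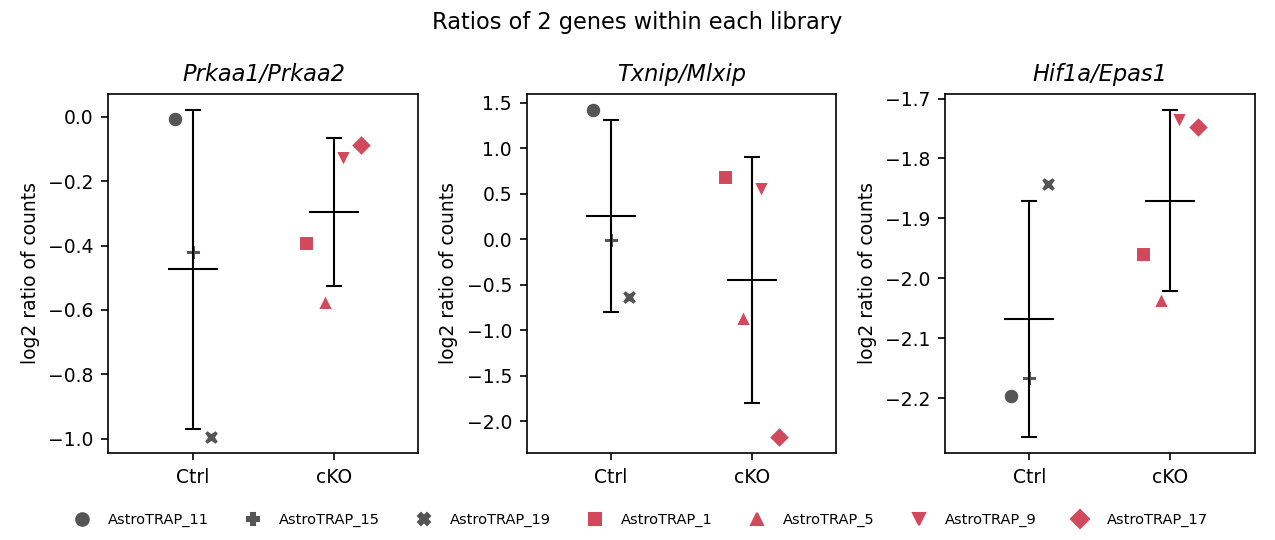
Log2 ratio of the counts of 2 genes within each library (y axis, not per length) for Prkaa1 to Prkaa2, Txnip to Mlxip and Hif1a to Epas1, 1 symbol per library, mean and SD as lines. The genotypes overlap in all 3 panels; the range for Txnip to Mlxip, from -2.17 to 1.42, is the widest.

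The AMPK genes encode a trimer, in which a catalytic alpha subunit is bound by a beta scaffold and a gamma subunit that senses AMP. Prkaa1, the alpha 1 catalytic subunit (chr15:5143861-5181899), was at 16.4, 19.1 and 9.62 CPM in Ctrl and at 15.8, 13.2, 18.7 and 21.3 CPM in cKO. The lowest and the second highest value were both controls. Means of 15.05 ± 4.89 CPM (SD, n = 3) and 17.3 ± 3.55 CPM (SD, n = 4) gave a log2 fold change of 0.19 (SE 0.27, 95% interval -0.41 to 0.79).

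Prkaa2, the alpha 2 catalytic subunit (chr4:105029649-105109898), lies on the same chromosome as Slc2a1, 13.999 Mb away. It stood at 16.5, 25.6 and 19.2 CPM in Ctrl and at 20.7, 19.6, 20.5 and 22.7 CPM in cKO, with every cKO library inside the span of the controls. Its means were 20.4 ± 4.64 CPM (SD, n = 3) and 20.9 ± 1.29 CPM (SD, n = 4), a log2 fold change of 0.032 (SE 0.20, 95% interval -0.40 to 0.46).

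The balance of the 2 catalytic subunits, as the log2 ratio of Prkaa1 to Prkaa2 counts, was -0.0067, -0.42 and -0.99 in Ctrl and -0.39, -0.58, -0.13 and -0.087 in cKO. AstroTRAP_19 was the lowest and AstroTRAP_11 the highest, both controls. The mean was -0.47 ± 0.50 (SD, n = 3) in Ctrl and -0.30 ± 0.23 (SD, n = 4) in cKO, a difference of 0.18 (exact two-sided permutation test, p = 0.629, adjusted 0.629). Without AstroTRAP_19 the difference was -0.082.

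Prkab1, the beta 1 scaffold (chr5:116013586-116024503), was at 4.50, 5.60 and 8.17 CPM in Ctrl and at 7.34, 10.3, 7.35 and 7.86 CPM in cKO. Only AstroTRAP_19 kept the groups from separating. The means of 6.09 ± 1.89 CPM (SD, n = 3) and 8.21 ± 1.41 CPM (SD, n = 4) correspond to a log2 fold change of 0.44 (SE 0.32, 95% interval -0.27 to 1.146). The other beta subunit, Prkab2, had an estimate of opposite sign, at 11.3 ± 3.55 CPM in Ctrl and 8.54 ± 1.85 CPM in cKO (log2 fold change -0.41, SE 0.30). Of the 6 AMPK subunits tested 4 were positive and 2 negative, 0 past the test. The muscle-type subunit Prkag3 had 1 count at most.

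Stk11, the gene of the AMPK-activating kinase LKB1 (chr10:80115767-80130679), had 38.1, 31.2 and 41.7 CPM in Ctrl and 40.0, 24.3, 37.0 and 37.6 CPM in cKO. AstroTRAP_5 was the lowest library, and the highest and the lowest of the others were both controls. Means were 37.0 ± 5.35 CPM (SD, n = 3) and 34.8 ± 7.08 CPM (SD, n = 4), for a log2 fold change of -0.092 (SE 0.20, 95% interval -0.53 to 0.34). The gene overlaps Cbarp, which is protein coding, and the library type keeps no strand, so reads in the shared stretch cannot be told apart. Txnip, Prkaa2 and Hif1a likewise each overlap 1 long non-coding RNA.

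Upstream of AMPK, 13 genes for LKB1, its scaffolds, the calcium-dependent kinases and the lysosomal folliculin group were tested, 10 positive and 3 negative, with a median log2 fold change of 0.081 and 0 past the test. Fnip1, a partner of folliculin, was at 18.3 ± 0.502 CPM (SD, n = 3) in Ctrl and 21.6 ± 4.55 CPM (SD, n = 4) in cKO. Among 12 AMPK substrates tested 6 were positive and 6 negative, with a median of -0.0029. Ppargc1a, the coactivator of mitochondrial biogenesis, had the lowest unadjusted p of all pathway genes (0.0940, edgeR quasi-likelihood, adjusted p 0.9996): it was at 39.3 ± 5.81 and 47.8 ± 4.06 CPM, and its groups did not overlap. Tbc1d1 and Tbc1d4, which hold back vesicles that carry glucose transporters, had the extreme values of the list at log2 fold changes of 0.51 (SE 0.57) and -1.05 (SE 1.01).

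**Figure D3:**
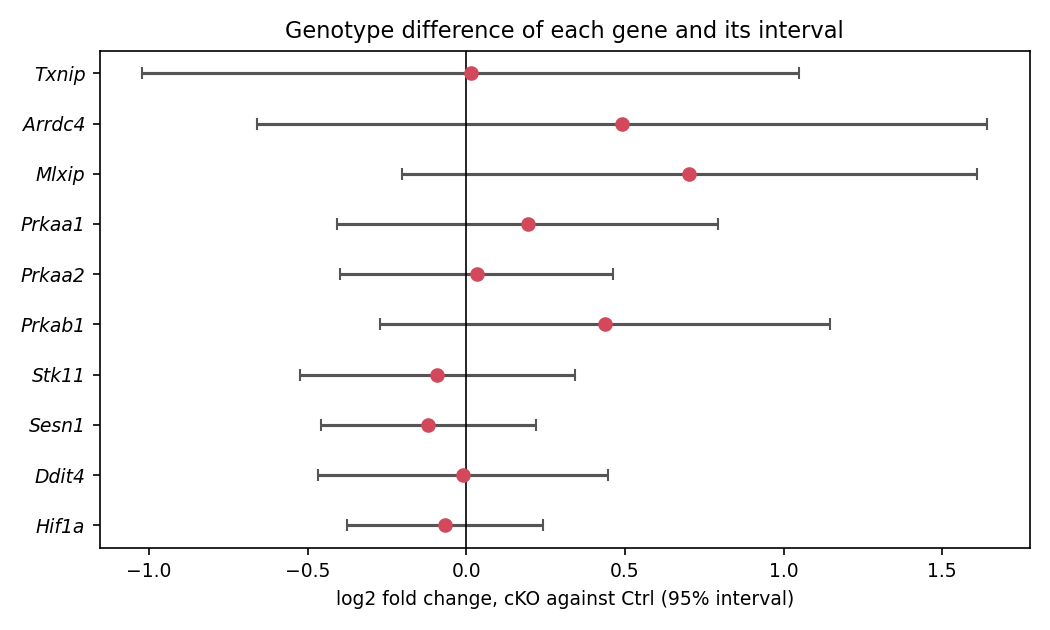
Log2 fold change of cKO against Ctrl (x axis) for the 10 genes, points with 95% intervals of the edgeR quasi-likelihood fit. All 10 intervals include 0; the interval of Hif1a, from -0.38 to 0.24, is the narrowest and that of Arrdc4, from -0.66 to 1.64, the widest.

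Sesn1 and Ddit4 restrain mTORC1, the first by binding the GATOR complexes and the second, also called REDD1, through the TSC complex. Sesn1 (chr10:41810574-41908436) was at 77.0, 81.6 and 64.7 CPM in Ctrl and at 79.6, 60.2, 75.3 and 58.9 CPM in cKO, so that AstroTRAP_5 and AstroTRAP_17 lay below every control and the other cKO libraries did not. The means were 74.5 ± 8.78 CPM (SD, n = 3) and 68.5 ± 10.5 CPM (SD, n = 4), a log2 fold change of -0.12 (SE 0.15, 95% interval -0.46 to 0.22).

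Ddit4 (chr10:59949675-59951770), a gene induced by energy loss, low oxygen and glucocorticoids, was at 15.5, 13.3 and 18.2 CPM in Ctrl and at 17.5, 15.5, 16.0 and 13.04 CPM in cKO. The values of the genotypes interleaved. Ctrl averaged 15.7 ± 2.44 CPM (SD, n = 3) and cKO 15.5 ± 1.86 CPM (SD, n = 4). The log2 fold change came to -0.011 (SE 0.21), and its 95% interval covers 0.722 to 1.36 times the control level.

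Of 13 genes of mTORC1 restraint tested 5 were positive and 8 negative, with a median log2 fold change of -0.056 and 0 past the test. Nprl2, a GATOR1 subunit, had 38.8 ± 3.83 CPM (SD, n = 3) in Ctrl and 31.7 ± 5.16 CPM (SD, n = 4) in cKO, with no overlap of the groups (log2 fold change -0.29, SE 0.17). At the other end stood Tbc1d7, the third TSC complex subunit, at 25.4 ± 0.484 and 30.2 ± 9.42 CPM. In the list of the integrated stress and unfolded protein responses 11 genes were tested, 4 positive and 7 negative, with 0 past the test. Its extremes were Eif2ak3, the kinase PERK (log2 fold change 0.41, SE 0.42), and Chac1, a glutathione-degrading target of the ATF4 branch (log2 fold change -0.20, SE 0.43).

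Hif1a (chr12:73901324-73947554), whose protein level is set mainly by oxygen-dependent degradation, was at 59.8, 75.2 and 60.7 CPM in Ctrl and at 67.6, 56.3, 66.9 and 58.2 CPM in cKO. One control stood highest and the other libraries lay in a narrow band. Means of 65.2 ± 8.65 CPM (SD, n = 3) and 62.3 ± 5.83 CPM (SD, n = 4) gave a log2 fold change of -0.068 (SE 0.14). Its 95% interval, from 0.770 to 1.18 times the control level, was the narrowest of the 10.

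Epas1, which encodes HIF2alpha, was at 276 ± 59.97 CPM (SD, n = 3) in Ctrl and 228 ± 27.8 CPM (SD, n = 4) in cKO (log2 fold change -0.28, SE 0.16). The log2 ratio of Hif1a to Epas1 was -2.20, -2.17 and -1.84 in Ctrl and -1.96, -2.04, -1.74 and -1.75 in cKO. Only AstroTRAP_19 among the controls reached the cKO range. The means were -2.07 ± 0.20 (SD, n = 3) and -1.87 ± 0.15 (SD, n = 4), a difference of 0.20 (exact two-sided permutation test, p = 0.171, adjusted 0.514). Among the 10 genes of HIF subunits and their regulators 5 were positive and 5 negative, 0 past the test, with Hif1an, the asparagine hydroxylase, at 0.27 (SE 0.24) and the partner Arnt at -0.33 (SE 0.26) on the log2 fold change scale.

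Among HIF target genes 14 of 18 tested had a negative fold change and 4 a positive one, with a median log2 fold change of -0.071 and 0 past the test. The lowest was Ankrd37, at 2.52 ± 1.67 CPM (SD, n = 3) and 1.04 ± 0.654 CPM (SD, n = 4) with an SE of 0.83 on a log2 fold change of -1.28, and the highest Higd1a, a mitochondrial hypoxia gene, at 234 ± 12.2 and 249 ± 6.98 CPM. This split depended on which library was left out. It was lost without AstroTRAP_17, with 8 of 18 negative (median 0.012), and without AstroTRAP_5, with 9 of 18 (median 0.0032). With any other library left out, between 10 and 14 of 18 were negative, and the median was -0.22 without AstroTRAP_1. Under the other normalizations and tests 14 or 15 of 18 were negative. The hypoxia core ACGTG, on either strand, was found in the promoters of Hif1a, Ddit4, Stk11 and Arrdc4 and in 19.6% of all promoters. For Hif1a the matches, from chr12:73907732 to chr12:73907801, lie inside the span of the gene given above.

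**Figure D4:**
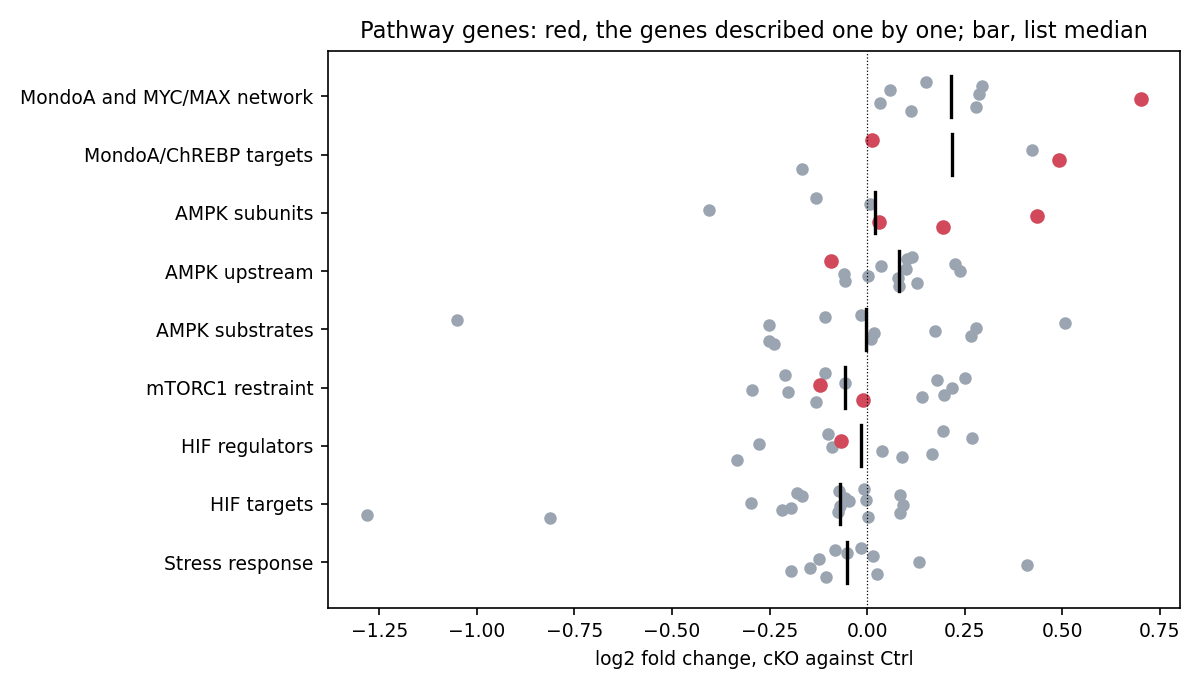
Log2 fold change of cKO against Ctrl (x axis) for the tested genes of 9 pathway lists (y axis), 1 point per gene, with the 10 genes described one by one in red and each list median as a bar. All points of the MondoA and MYC/MAX network lie above 0, from 0.032 to 0.70, and the HIF targets reach down to -1.28.

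Over all lists, 94 of 99 genes were tested: 0 passed the adjusted p by edgeR's quasi-likelihood test, its exact test or DESeq2, 0 had an unadjusted p under 0.05, and in 3 of 94 (Mnt, Ppargc1a and Nprl2) the groups did not overlap, against 5.11% of tested genes. Their fold changes were positive for 49 and negative for 45, with a median of 0.0049 (log2).

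Precision differed more than 3-fold among the 10 genes. The biological coefficient of variation of the edgeR fit was 15.04% for Hif1a, 16.0% for Sesn1, 19.8% for Stk11 and 20.2% for Prkaa2, and 38.3% for Mlxip, 43.9% for Txnip and 46.8% for Arrdc4. Mlxip, Txnip and Arrdc4 also had the widest intervals. For Arrdc4 the spread was mostly in cKO, with a coefficient of variation of 45.3% there and 4.06% in Ctrl, whereas for Txnip it was 48.0% and 45.2%.

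Txnip and Arrdc4 were both lowest in AstroTRAP_17. Over the 7 libraries their log2 CPM gave Pearson r = 0.73 (permutation p = 0.0669, adjusted over 45 pairs 0.519) and Spearman rho = 0.43 (permutation p = 0.354, adjusted 0.909). Leaving out AstroTRAP_17 and AstroTRAP_19, the libraries farthest from the Txnip median, brought r to 0.34. That choice also narrows the range of Txnip, so it cannot show what the relation rests on. Within genotypes r was 0.79. Of 45 pairs among the 10 genes 0 passed an adjusted p of 0.05. The strongest was Mlxip with Sesn1, at r = -0.89 (permutation p = 0.00913, adjusted 0.375), rho = -0.82 (permutation p = 0.0341, adjusted 0.512) and r = -0.92 without AstroTRAP_5 and AstroTRAP_11, and within genotypes r was -0.88.

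The genes whose log2 CPM ran most like Txnip across the 7 libraries were Meig1 (r = 1.00 to 2 decimals), Nup62cl (r = 0.99) and Mgme1 (r = 0.99), and 159 of 13295 other genes had r over 0.9. For Ddit4 they were Mrpl27, Sfxn3 and Ccr10 (r = 0.97, 0.96 and 0.96), and for Hif1a Eif3a, Skiv2l and Acadsb (r = 0.99, 0.99 and 0.97). Meig1, Nup62cl and Ccr10 had low levels, with a mean log2 CPM of -0.41, -0.16 and -1.26. Each named gene was picked for a highest r among 13295 genes over only 7 libraries. The values are descriptions over libraries that share their preparation and differ in depth.

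**Figure D5:**
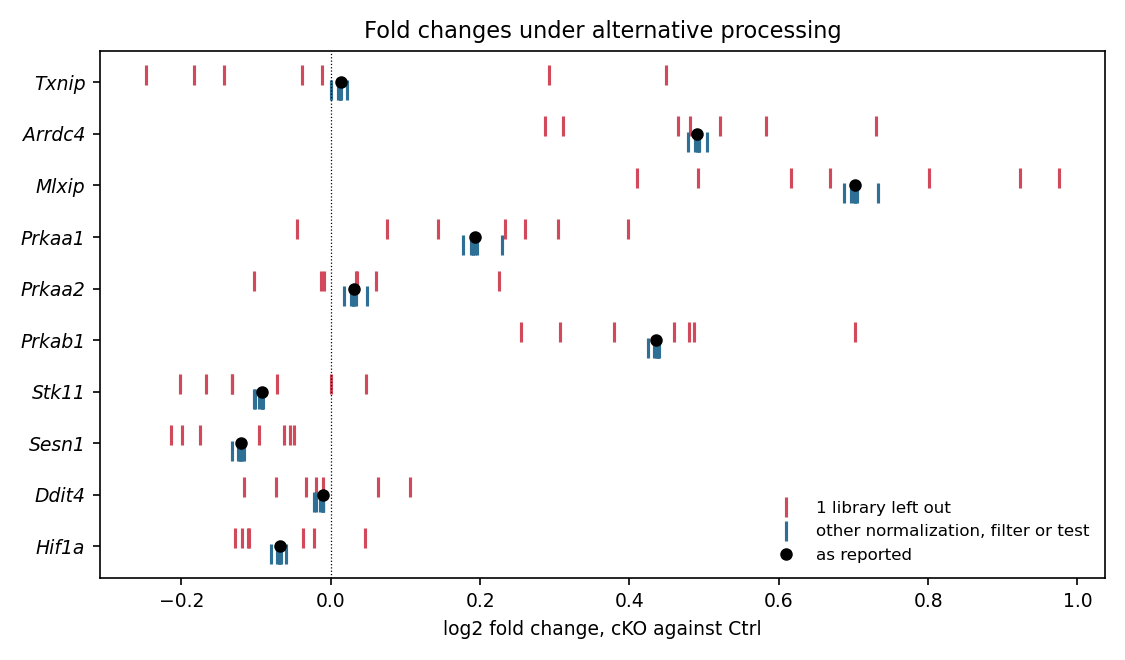
Log2 fold change of cKO against Ctrl (x axis) of the 10 genes as reported (black), with 1 library left out (red ticks) and with another normalization, filter or test (blue ticks). Blue ticks stay close to the black points, while leaving out 1 library moves Txnip between -0.25 and 0.45 and Mlxip between 0.41 and 0.98.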

How the data were processed

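Ribosome-bound RNA was pulled down from cortex of single animals and sequenced (Smart-seq2, single-end). The authors trimmed reads with cutadapt 1.15, assigned them to GENCODE vM17 transcripts (GRCm38) with kallisto 0.44.0 and deposited estimated counts per gene, not normalized. The study left out IP samples with high neuronal expression or few reads. Labels name 5 Ctrl and 4 cKO IP samples, of which 3 and 4 were used, so the unused ones were all controls. Of 18 columns, 7 were used, whose names the study's source data tie to a genotype; 11 were not used, so enrichment over input was not analysed here.

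Counts were rounded, filtered (filterByExpr) and scaled (TMM), and tested with the quasi-likelihood test of edgeR 4.0.16 (R 4.3.3), genotype as the only term, Benjamini-Hochberg adjustment at 0.05. Standard errors came from the F statistic. As alternatives, library-size, RLE or upper-quartile scaling, edgeR's exact test, DESeq2 1.42.0, no filter, 1 CPM in 3 libraries, and leaving out each library were run. Ratios used counts plus 0.5 and exact permutation tests (SciPy 1.17.1). The fits were tested on simulated data. No pair of replicate libraries agreed within sampling noise (chi-square per degree of freedom at least 32.2). Total counts were 12570309 to 40734343, and the floors at 3 counts cover counting error only.

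All 10 genes are named. From each pathway list the gene of lowest unadjusted p and those of the largest fold change in each direction are named, and Mlx, Mnt, Mlxipl, Pklr and Prkag3 were added after their values were seen. For Txnip, Ddit4 and Hif1a, the 3 genes of highest r are named. The genes and lists were chosen with earlier results of these data known. Promoters and positions are from RefSeq, GRCm38.p6.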

Additional observations from a re-analysis of the deposited data

How the results depend on the processing

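No alternative brought any of the 10 genes past the adjusted p threshold. The count of genes called in the whole table was 6, and was 18 with edgeR's exact test and 21 with DESeq2; the cause was not tested. Leaving out 1 library gave 4 to 6 called genes.

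Other normalizations, filters and tests turned no fold change of the 10 genes. Leaving out 1 library at a time turned the sign for 6 of them, none past the threshold: the log2 fold change ran from -0.25 to 0.45 for Txnip, -0.046 to 0.40 for Prkaa1, -0.10 to 0.23 for Prkaa2, -0.20 to 0.047 for Stk11, -0.12 to 0.11 for Ddit4 and -0.13 to 0.046 for Hif1a. It kept its sign for Arrdc4 (0.29 to 0.73), Mlxip (0.41 to 0.98), Prkab1 (0.26 to 0.70) and Sesn1 (-0.21 to -0.050). The ratio of Prkaa1 to Prkaa2 differed by -0.082 to 0.41, that of Txnip to Mlxip by -1.15 to -0.12 and that of Hif1a to Epas1 by 0.13 to 0.31. With 1 library left out, the smallest p of the exact test is 0.133 or 0.100, so these tests say nothing about stability.

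No paired analysis was possible because the columns carry no replicate numbers. The lowest counts in a library among the 10 genes were 22 for Arrdc4 and 36 for Txnip; the part of depth in their wide intervals was not tested.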
